A study of Mus musculus with 22 samples.

Results

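The thermogenic and beige fat genes described here were Ucp1, Cidea, Ppargc1a, Dio2, Elovl3, Prdm16, Cox8b, Cox7a1 and Cpt1b. They were chosen by gene symbol as genes of brown and beige fat, 9 of the 23420 gene rows that were counted, and all 9 had counts. Brown and beige adipocytes burn fuel to make heat: uncoupling protein 1 lets protons leak back across the inner mitochondrial membrane, so that respiration runs without making ATP. Noradrenaline from sympathetic nerves switches this on through beta-adrenergic receptors and cyclic AMP, which raises transcription of Ucp1, Dio2 and Ppargc1a. Beige adipocytes appear within white depots, and in mice the inguinal depot is the one best known for it.

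The tissue was inguinal white adipose tissue (IWAT) of female wildtype C57Bl/6 mice, which is also the mammary fat pad. Lean mice ate regular chow (n = 5) and obese mice a high fat diet (HFD) for 16 weeks (n = 6), and all were 20 weeks old at injection. In every mouse the left pad received cells of E0771, a breast cancer line from the same mouse strain, in PBS with Matrigel (tumor-associated IWAT), and the right pad received PBS with Matrigel alone (control IWAT). Pads were taken 2 weeks later, with the inguinal lymph node and the fat bordering the tumor removed, so the control pad came from a tumor-bearing animal and both pads had Matrigel. RNA was depleted of ribosomal RNA and sequenced, 22 libraries in all, with 5759775 to 8598108 counts on genes per library (median 6953882). Expression is given as CPM, the counts per 1000000 counts of the normalized library total. A gene was called when edgeR's quasi-likelihood test gave an adjusted p (Benjamini-Hochberg) under 0.05 among the 14458 genes that passed its filter on low counts. The filter kept 7 of the 9 genes and dropped Elovl3 and Cpt1b. The SE of a log2 fold change was worked back from the test, as its size divided by the square root of the F statistic. It is therefore approximate.

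RefSeq promoters (GRCm38.p6) were at hand for 6 of the 9 genes, each 300 bases long with 250 before the gene's start. TGACG, the core of the cyclic AMP response element, was searched on both strands and stood in the promoters of Ucp1, Ppargc1a and Dio2, against 20.8% of all 32851 promoters. These 3 are shown because their genes are known to answer cyclic AMP. The 250 bases before each start are given 5′ to 3′, and capitals mark motif matches.
Ucp1, chr8:83290098-83290347, plus strand: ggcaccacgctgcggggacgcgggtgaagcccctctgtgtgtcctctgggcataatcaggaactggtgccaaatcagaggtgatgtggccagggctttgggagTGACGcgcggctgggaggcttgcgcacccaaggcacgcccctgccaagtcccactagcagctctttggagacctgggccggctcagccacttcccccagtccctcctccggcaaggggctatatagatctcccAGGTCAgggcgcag
Ppargc1a, chr5:51567726-51567975, minus strand: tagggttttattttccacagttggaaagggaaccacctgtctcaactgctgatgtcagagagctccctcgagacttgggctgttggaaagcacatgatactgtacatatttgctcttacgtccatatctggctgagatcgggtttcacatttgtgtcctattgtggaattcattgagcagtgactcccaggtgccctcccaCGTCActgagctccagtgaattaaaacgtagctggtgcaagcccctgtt
Dio2, chr12:90739039-90739288, minus strand: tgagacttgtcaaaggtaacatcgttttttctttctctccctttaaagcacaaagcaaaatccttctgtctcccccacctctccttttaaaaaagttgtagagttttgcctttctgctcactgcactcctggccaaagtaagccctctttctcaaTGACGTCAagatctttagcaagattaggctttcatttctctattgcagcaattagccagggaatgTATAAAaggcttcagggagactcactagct

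In the Ucp1 promoter the match began 147 bases before the start, and a second capital stretch is AGGTCA, a nuclear receptor half-site, which 16.3% of all promoters held. The Ppargc1a match lay on the opposite strand. In Dio2 the matches on both strands overlapped, and the later capitals are TATAAA, the letters of the TATA box, which 13.6% of all promoters held. Of the 6 windows Cox8b also held TATAAA, but there it began 4 bases after the start. AAGGTCA, the longer half-site of estrogen-related receptors that holds AGGTCA, was in none of the 6 windows, against 4.72% of all promoters. GCGCATG, part of the NRF1 element, was in Prdm16 and in 3.91% of all. These letters describe the windows and were not tested for function.

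The 9 genes were expressed at very unequal levels. Per kilobase of exon, Cox8b, a muscle- and brown-fat form of a cytochrome c oxidase subunit, stood highest in lean control IWAT, with 106.5 ± 49.8 RPKM (counts per kilobase and per 1000000 counts) (SD, n = 5). Cidea, a lipid droplet protein of thermogenic fat, was at 45.3 ± 25.0, Ucp1 at 14.9 ± 10.6 and Cox7a1, another tissue-specific oxidase subunit, at 12.1 ± 6.54 RPKM (SD, n = 5). The coactivator Ppargc1a, the transcription factor Prdm16 and the deiodinase Dio2 were between 1.81 and 2.77 RPKM, and Elovl3 and Cpt1b below 1. In obese control IWAT the order changed, with Cox8b at 13.9 ± 3.50 and Cox7a1 at 4.27 ± 1.65 RPKM ahead of Cidea at 2.64 ± 0.652, and Ucp1 at 0.478 ± 0.258 RPKM (SD, n = 6). Zic1, a marker of classical brown fat, had at most 1 count in any library.

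**Figure D1:**
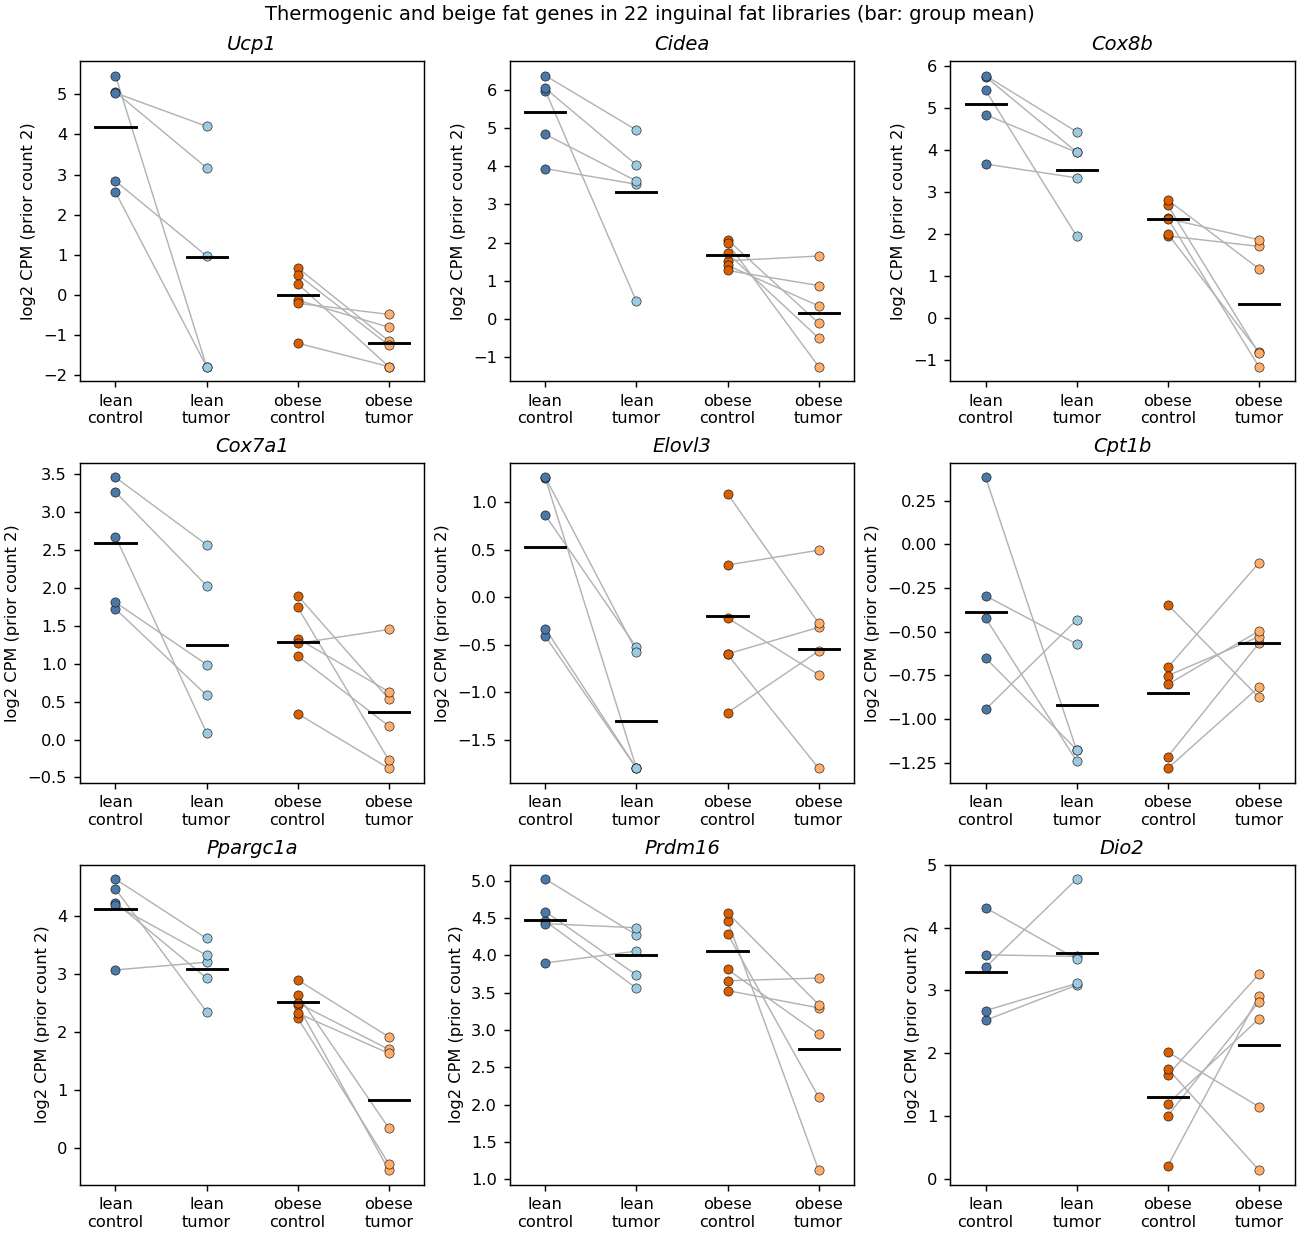
Log2 CPM (prior count 2) of the 9 genes in each of the 22 libraries, 1 panel per gene with its own y axis; points are libraries, grey lines join both pads of a mouse and black bars are group means. In obese control IWAT, Ucp1, Cidea, Cox8b, Ppargc1a and Dio2 lie below all lean control libraries, and Dio2 is the one of the 7 tested genes whose mean is higher beside the tumor.

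The first question was how control IWAT of obese mice differed from that of lean mice. Of the 7 genes tested, 6 were called lower in obese control IWAT and none higher, where 7.53% of all genes tested were called lower and 17.1% called in either direction. Ucp1, Cidea and Cox8b had the 3 largest falls among them, and Prdm16 was the gene not called. The median log2 fold change of the 7 was -2.15, beside 0.04 over all genes tested. Ucp1 passed the filter on low counts through lean libraries, where it was high, so a rise could hardly have been called for it. Elovl3 and Cpt1b, low in both groups, were dropped. The counts and the median of the 7 carry this selection. Without the filter Ucp1 was at -4.945 (log2, edgeR adjusted p = 0.00156).

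Ucp1 was at 6.85, 44.1, 33.1, 32.6 and 5.59 CPM in lean control mice 0, 2, 3, 6 and 9 (59, 252, 216, 185 and 33 counts). In obese control IWAT it ran from 0.144 to 1.31 CPM with a median of 0.770 (1 to 9 counts). The lean mice split into 3 high and 2 low animals, yet even the lowest lay above every obese library. Ucp1 fell by 4.94 on the log2 scale (SE 0.95, edgeR adjusted p = 0.00139). From summed counts alone, 33 against 745, Ucp1 was 29.7 times lower, with a 95% exact interval for counting error of 20.9 to 43.4.

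Cidea had 15.0, 62.5, 65.1, 82.0 and 28.1 CPM in the same 5 lean libraries, and 2.12 to 3.92 CPM with a median of 2.80 in the obese ones. The groups lay apart, and the 2 lean mice low in Ucp1, mice 0 and 9, were also the lowest for Cidea. It fell by 4.10 (log2, SE 0.59, edgeR adjusted p = 0.000103). Cox8b had 12.4, 42.7, 53.6, 54.6 and 28.5 CPM in lean libraries against 3.59 to 6.73 with a median of 4.89 CPM in obese ones, again apart, a fall of 2.94 (log2, SE 0.52, edgeR adjusted p = 0.00067).

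Among the regulators, Ppargc1a, the coactivator that drives mitochondrial biogenesis, was at 8.13, 21.9, 18.5, 24.6 and 18.0 CPM in lean libraries and 4.45 to 7.18 CPM with a median of 5.30 in obese ones. It fell by 1.73 (log2, SE 0.37, edgeR adjusted p = 0.00349), with no overlap between the groups. Prdm16, which commits precursor cells to the brown and beige fate, had 14.6 to 32.2 CPM in lean and 11.3 to 23.5 CPM in obese libraries, and these ranges overlapped. Its log2 fold change of -0.42 (SE 0.32, edgeR adjusted p = 0.413) did not pass the test.

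Dio2, which turns thyroxine into active thyroid hormone inside the cell, was at 5.46, 11.5, 19.6, 10.03 and 6.10 CPM in lean and 0.862 to 3.75 CPM, median 2.42, in obese control libraries. All obese values lay below all lean ones, a fall of 2.15 (log2, SE 0.50, edgeR adjusted p = 0.00608). Cox7a1 was at 3.02, 6.12, 9.34, 10.7 and 3.22 CPM in lean and 0.979 to 3.45 CPM, median 2.18, in obese libraries. Here the groups overlapped, and the fall of 1.49 (log2, SE 0.48, edgeR adjusted p = 0.0368) lost its call in 7 of 22 fits that each left out 1 library. In all, 5 of the 7 genes had groups that did not overlap with obese libraries lower, against 5.59% of all genes tested. Ucp1, which passed the filter through lean libraries, is among them.

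**Figure D2:**
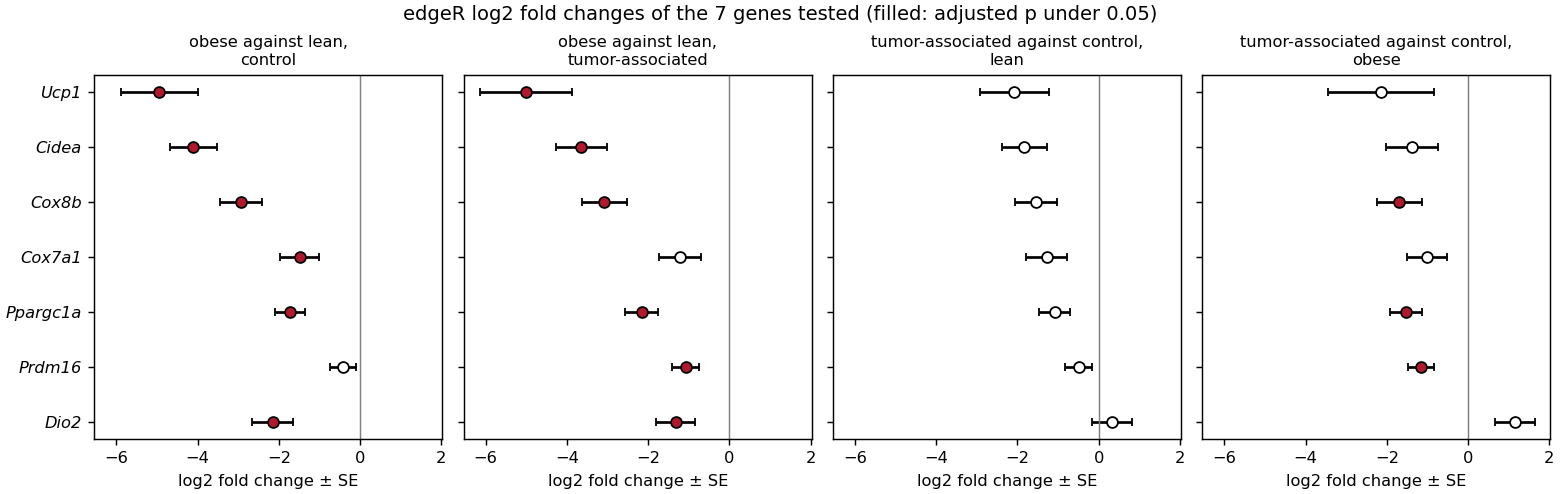
edgeR log2 fold changes (points) with standard errors (bars) of the 7 genes that passed the filter, in 4 comparisons; filled points have an adjusted p under 0.05. With diet as the comparison 6 genes are filled in each kind of pad; with the tumor as the comparison none is filled in lean mice and 3 are in obese mice.

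Bulk RNA cannot tell fewer thermogenic cells from less RNA per cell. Of 15 adipocyte genes (Fabp4 and Lpl the most abundant, Pparg and Cidec among them) 4 were called between the diets in control IWAT, 2 in each direction, with summed levels of 19800 to 25770 CPM in lean and 21560 to 39450 CPM in obese libraries. None of the 15 was at 0, and 17.1% of all genes were called in this comparison. With libraries scaled to keep the adipocyte genes level, 5 of the 7 genes stayed called lower (Ucp1, Cidea, Cox8b, Ppargc1a and Dio2), where 4.25% of all genes were called and 2.07% called lower. Relative to the mean log2 CPM of the adipocyte genes in each library, Ucp1 was lower in obese mice by 4.21, Cidea by 3.76, Cox8b by 2.72 and Dio2 by 1.98 (log2). For each of these 4 the two-sided exact permutation of diet over 11 mice gave p = 0.002165, unadjusted and the smallest that 5 against 6 mice allow.

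Other cell types also differed between the diets. Over all genes 17.1% were called and 31.5% had an unadjusted p under 0.05. Mammary epithelium genes summed to 1120 to 1935 CPM in lean and 444 to 1149 CPM in obese control IWAT, with 3 of 11 called lower. Skeletal muscle genes summed to 74.2 to 100.2 CPM in lean and 95.5 to 8659 CPM in obese control IWAT, with 9 of 11 called higher. Endothelial genes summed to 687 to 791 CPM in lean and 915 to 1295 CPM in obese control IWAT, without overlap, with 3 of 8 called higher. Lymphocyte genes summed to 7.66 to 78.9 CPM in lean and 5.59 to 609.2 CPM in obese control IWAT, with obese mice 1 and 3 far above the rest and 1 of 9 called higher (7 at an unadjusted p under 0.05). The part of these cells in the results, muscle included, was not tested. A further fit left out the 2 libraries with the most muscle RNA (obese control mouse 1 and obese tumor-associated mouse 8, chosen after seeing the data). It had the same 6 calls, with Ucp1 at -4.74 and Cox7a1 at -1.66 (log2). The share over all genes is not given for this fit, and nothing about muscle is read from it. Cpt1b, the muscle form of carnitine palmitoyltransferase, had 1 count in the library of obese control mouse 1, the one richest in muscle genes.

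Lists of genes related to the 9 were also tested. Of 14 tested genes that carry signals to thermogenic fat, 3 were lower in obese control IWAT and none higher. Over all genes tested, 7.53% were called lower and 17.1% in either direction. The leading one was Adrb3, the beta3-adrenergic receptor through which noradrenaline acts on adipocytes, which had 211.9 ± 23.1 CPM in lean control IWAT (SD, n = 5), where obese mice had 29.3 ± 11.9 (SD, n = 6). Adrb3 fell by 2.85 on the log2 scale (SE 0.46, edgeR adjusted p = 0.000275), with no overlap. Vegfa, which recruits vessels, fell by 0.52 and Thra, a thyroid hormone receptor, by 0.44.

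Among 17 other regulators, 4 were lower and none higher, where 7.53% of all genes were called lower and 17.1% in either direction. Esrrb, an estrogen-related receptor, fell by 1.96 (log2), Ppargc1b by 1.25 and Esrra by 0.48. Of 14 genes used to tell beige from brown adipocytes, 3 were called, all lower, against the same shares of all genes. Cited1, a beige marker, fell by 2.31 on the log2 scale, P2rx5 by 2.11 and Mpzl2 by 2.08. The list as a whole did not fall with them, since the median log2 fold change of the 14 was -0.076, beside 0.04 over all genes. Tmem26, also used as a beige marker, had a log2 fold change of 0.45 (SE 0.50, edgeR adjusted p = 0.589).

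Of 22 other effector genes, 6 were lower and 2 higher, where 7.53% of all genes were called lower and 17.1% in either direction. Ucp3, the muscle-enriched uncoupling protein, fell by 1.76 (log2). Ryr2, a calcium release channel that takes part in calcium cycling, rose by 4.61 (log2, SE 0.36, edgeR adjusted p = 2.07e-07), from 1.69 ± 0.495 CPM (SD, n = 5) to 42.5 ± 10.8 CPM (SD, n = 6). It had 6 to 20 counts in lean and 227 to 355 counts in obese control libraries. Ryr1, the skeletal muscle channel, rose by 3.02 but with overlapping groups and a range of 13 to 650 counts in obese libraries.

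Close relatives of the 9 genes did not follow them in every family. Ucp2, an uncoupling protein relative that is widely expressed and not a heat producer, had 110.3 ± 38.9 CPM in lean control libraries and 142.7 ± 22.7 in obese ones (SD, n = 5 and 6), a log2 fold change of 0.37 (SE 0.24, edgeR adjusted p = 0.305). Cidec, the white-fat relative of Cidea, rose by 1.32 (log2, edgeR adjusted p = 0.0159), from 788 ± 137 to 1970 ± 574 CPM, with the groups apart. Cox8a, the form present in most tissues, was at -0.38 (log2, edgeR adjusted p = 0.102), while Cox7a2 fell by 0.51. Cpt1a, the liver-type palmitoyltransferase, rose by 1.45 (log2, edgeR adjusted p = 5.59e-05), and Mecom, the relative of Prdm16, was at 0.24. Of all the relatives Elovl6, a lipogenic elongase, fell most, by 5.56 (log2, edgeR adjusted p = 2.82e-06). The difference between a gene and its relative was not itself tested.

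**Figure D3:**
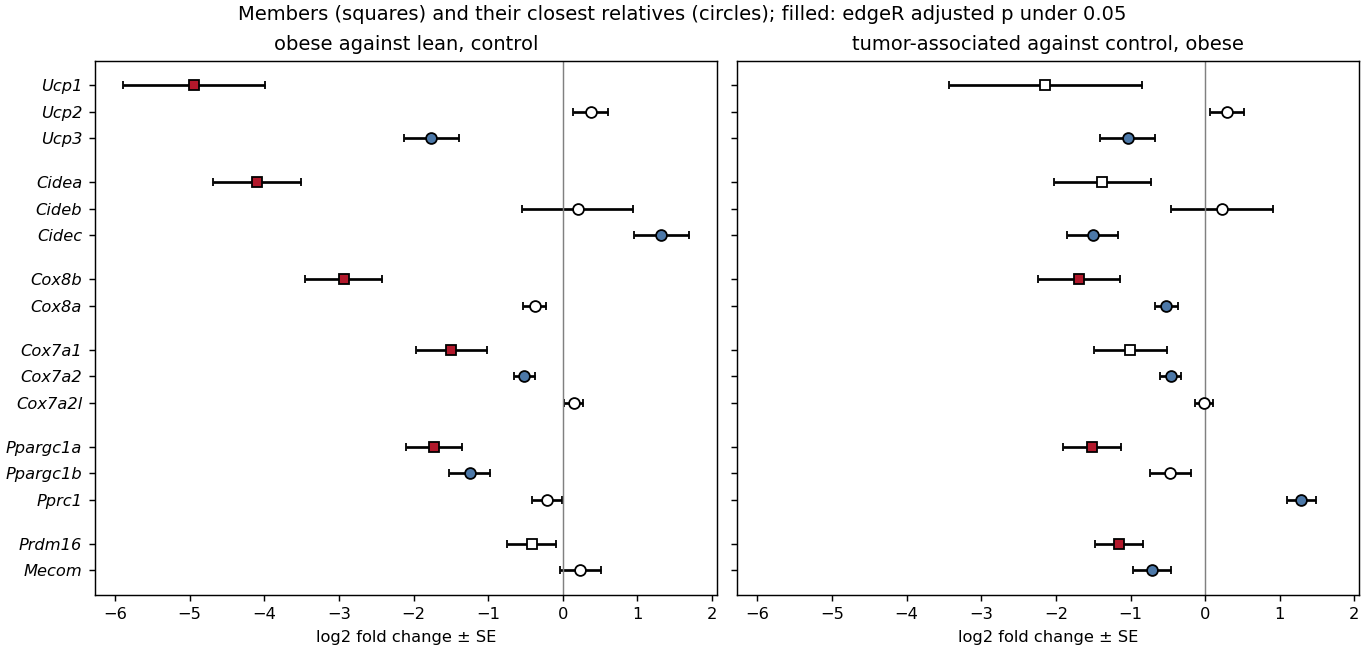
edgeR log2 fold changes with standard errors (bars) of 6 of the genes (squares) and their closest relatives (circles), for obese against lean control IWAT (left) and for tumor-associated against control IWAT in obese mice (right); filled symbols have an adjusted p under 0.05. On the left Cidea is at -4.10 and Cidec at 1.32; on the right Cidec is at -1.51 and Pprc1 at 1.29.

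The next question was whether the tumor changed these genes in the fat beside it. The paper reports larger tumors in HFD than in chow mice. Diet and tumor size therefore go together wherever obese and lean fat beside the tumor are compared, and their parts were not tested. In lean mice edgeR called none of the 7 genes, where 4.18% of all genes were called and 0.913% called lower. For none of the 7 did the groups lie apart, as they did with tumor-associated IWAT lower for 3.03% of all genes. At an unadjusted p under 0.05 there were 5 (Cidea, Ucp1, Cox8b, Cox7a1 and Ppargc1a, all lower), as had 16.1% of all genes in either direction, and DESeq2 called 1, Cidea, where it called 6.48% of all genes. The median log2 fold change of the 7 was -1.28, beside 0.01 over all genes, and these values share the control libraries with the diet comparison.

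Ucp1 beside the tumor was at 1.67, 0, 8.69, 18.15 and 0 CPM in lean mice 0, 2, 3, 6 and 9 (11, 0, 64, 141 and 0 counts). It was lower than in the control pad of the same animal in 5 of 5 mice, and mouse 2 went from the highest control value of the group to no count. The log2 fold change was -2.08 (SE 0.85, edgeR adjusted p = 0.211). The value passed without lean tumor-associated mouse 6 (-3.20, adjusted p = 0.0435). A library without a count allows up to 3 counts, between 0.348 and 0.528 CPM here. Summed counts, 216 against 745, gave a ratio of 3.68 times lower with an exact 95% counting interval of 3.16 to 4.30, which leaves out the spread between mice.

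Cidea was at 11.2, 1.09, 16.0, 30.4 and 11.9 CPM beside the tumor, lower than in the control pad in 5 of 5 lean mice. The log2 fold change of -1.83 (SE 0.56) missed the threshold (edgeR adjusted p = 0.0696). It passed without lean tumor-associated mouse 6 (adjusted p = 0.0222), without lean control mouse 0 (0.0426) and without obese tumor-associated mouse 4 (0.039). Cox8b was at 9.85, 3.58, 15.2, 21.4 and 15.1 CPM, also lower in 5 of 5 mice (log2 fold change -1.55, SE 0.52, edgeR adjusted p = 0.106).

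Cox7a1 was lower in 5 of 5 lean mice too, at 1.21, 0.777, 3.804, 5.66 and 1.70 CPM beside the tumor (log2 fold change -1.28, SE 0.50, edgeR adjusted p = 0.186). With the mouse as a replicate block it was the 1 gene of the 7 called in lean mice, at -1.40 (edgeR adjusted p = 0.0407), where 4.63% of all genes were called and 1.15% called lower. Ppargc1a was at 8.94, 4.82, 7.34, 11.97 and 9.73 CPM (log2 fold change -1.08, SE 0.39, edgeR adjusted p = 0.137) and was higher beside the tumor in mouse 0. Prdm16 and Dio2 had log2 fold changes of -0.50 and 0.33 in lean mice, and Dio2 turned to -0.12 without lean tumor-associated mouse 6, whose 27.0 CPM stood far above the others.

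Elovl3, a fatty acid elongase of brown fat, had few counts. Lean control libraries had 4, 12, 10, 12 and 3 counts and the lean tumor-associated ones 0, 0, 3, 3 and 0, so that it was lower beside the tumor in 5 of 5 mice. Without a filter on low counts the log2 fold change was -2.85 (SE 0.83, edgeR adjusted p = 0.0786), and the CPM of the groups did not overlap. Summed counts were 6 against 41, or 7.30 times lower (95% exact counting interval 3.08 to 21.0). Obese libraries had 1 to 12 counts in control and 0 to 7 in tumor-associated IWAT. Elovl3 passed the filter in 7 fits that left out 1 lean library. It was called without lean tumor-associated mouse 6 (adjusted p = 0.0448) and not in the other 6 (adjusted p = 0.0504 to 0.179), and DESeq2 gave it no adjusted p. Elovl3 passed the filter largely through lean control libraries, where it was highest. Mouse 6 held 3 of the 6 counts of lean tumor-associated IWAT, so nothing is read from the call without it. Elovl3 overlaps exons of Pitx3 on the other strand, Dio2 those of Gm26512 and Prdm16 those of B230104I21Rik. Of these overlapping genes only Pitx3 has a count row. If counting ignored strand, reads from the shared exons cannot be assigned to either gene of a pair. The effect on the counts was not tested.

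Cpt1b had 1 to 6 counts in every library of all 4 groups, and edgeR without a filter on low counts called it in no comparison. Its exons overlap those of Gm44502 on the same strand, a gene without a count row, and the effect of this overlap on counting was not tested. At 9 counts in lean and 17 in obese tumor-associated IWAT, against 16 and 12 in control IWAT, neither a rise nor a fall could be detected. The library richest in skeletal muscle genes, that of obese control mouse 1, had 1 count. Whether depth sets this limit was not tested.

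In obese mice 3 of the 7 genes were called lower beside the tumor (Cox8b, Ppargc1a and Prdm16), none higher, against a background of 54.5% of all genes called and 27.7% called lower. As a share, 3 of 7 lies below that of all genes called and above that of all genes called lower, and nothing is read from the count. Ppargc1a was between 4.45 and 7.18 CPM (median 5.30) in control and between 0.481 and 3.49 CPM (median 1.90) in tumor-associated IWAT. Every tumor-associated library lay below every control one, and Ppargc1a fell by 1.52 (log2, SE 0.39, edgeR adjusted p = 0.00281).

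Cox8b was between 3.59 and 6.73 CPM in obese control and 0.16 and 3.35 CPM (median 1.12) in obese tumor-associated IWAT, also apart and lower in 6 of 6 mice. It fell by 1.69 (log2, SE 0.55, edgeR adjusted p = 0.0142). Prdm16 was between 11.3 and 23.5 CPM in control and 1.89 and 12.7 CPM (median 8.49) in tumor-associated IWAT, overlapping, and lower in 5 of 6 mice. It fell by 1.16 (log2, SE 0.32, edgeR adjusted p = 0.00497). The exact sign-flip permutation over the 6 mice gave p = 0.03125 for Cox8b and for Ppargc1a, the smallest possible, and 0.0625 for Prdm16, all unadjusted. Groups lay apart with tumor-associated IWAT lower for 9.66% of all genes.

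Cidea was at 0.135 to 2.85 CPM (median 0.812) in obese tumor-associated against 2.12 to 3.92 CPM in control IWAT, with a log2 fold change of -1.38 (SE 0.65, edgeR adjusted p = 0.0757). It was lower in 5 of 6 mice, and obese mouse 1 was the exception. It passed without obese tumor-associated mouse 1 or lean tumor-associated mouse 2. Cox7a1 was at -1.001 (log2, SE 0.49, edgeR adjusted p = 0.0905), and it passed with the mouse as a replicate block (-1.06, adjusted p = 0.0248). With that block 4 of the 7 genes were called in obese mice, all lower, where 53.1% of all genes were called and 27.6% called lower.

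Ucp1 was near its lower limit of detection in obese tumor-associated IWAT, with 1, 0, 2, 1, 0 and 3 counts in mice 0, 1, 2, 3, 4 and 8. Control pads of these mice had 8, 1, 5, 9, 6 and 4 counts, more than the tumor-associated pad in 6 of 6. The log2 fold change was -2.14 (SE 1.30, edgeR adjusted p = 0.166), and all 6 tumor-associated libraries were at or under 3 counts. Summed counts, 7 against 33, gave 4.79 times lower with a 95% exact counting interval of 2.08 to 12.8. Across the 4 groups the order was therefore lean control, lean tumor-associated, obese control and obese tumor-associated. Lean tumor-associated and obese control libraries overlapped (0 to 18.15 and 0.144 to 1.31 CPM). In edgeR the 2 tumor steps missed the threshold, also with the mouse as a replicate block (adjusted p = 0.0674 in lean and 0.153 in obese mice). The exact sign-flip permutation on log2 CPM gave p = 0.0625 in lean and 0.03125 in obese mice. Both are unadjusted and the smallest that the number of mice allows, and the obese counts are near the floor.

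Dio2 had the opposite sign. In obese control mice 0, 1, 2, 3, 4 and 8 it was at 3.75, 0.862, 2.85, 2.00, 3.07 and 1.72 CPM, and in their tumor-associated pads at 1.93, 7.24, 9.25, 5.54, 0.812 and 6.75 CPM. It was higher beside the tumor in 4 of 6 mice (1, 2, 3 and 8) and lower in mice 0 and 4. The log2 fold change was 1.15 (SE 0.49, edgeR adjusted p = 0.052), just outside the threshold, and DESeq2 called it (adjusted p = 0.0361). It also passed in 5 of the 22 fits that left out 1 library, those without lean tumor-associated mouse 6, lean control mouse 3, obese tumor-associated mouse 0 or 4, or obese control mouse 0 (adjusted p = 0.0145 at the lowest). It missed the threshold with the mouse as a replicate block (1.002, adjusted p = 0.137), in a fit of only the obese groups (1.15, adjusted p = 0.0844), without both pads of obese mouse 1 (0.84, adjusted p = 0.176) and without the 2 libraries rich in muscle genes (0.88, adjusted p = 0.168). The two-sided exact sign-flip permutation over the 6 mice gave p = 0.281. Mice 0 and 4 were also the 2 obese mice with the least adipocyte RNA beside the tumor, at 4945 and 3001 CPM summed over the adipocyte genes, against 11320 to 18520 CPM in the other 4 mice.

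Adipocyte RNA as a whole was lower in obese tumor-associated IWAT, with 14 of 15 genes called lower (27.7% of all genes) and a median log2 fold change of -1.29. Their sum ran from 3001 to 18520 CPM there and from 21560 to 39450 CPM in obese control IWAT. In lean mice edgeR called none of the 15, with 3 at an unadjusted p under 0.05, a median of -0.58 and sums of 12810 to 19930 beside the tumor and 19800 to 25770 CPM in control IWAT. The 3 genes called in obese mice had log2 fold changes of -1.16 to -1.69, near that adipocyte median.

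Relative to the adipocyte genes of the same library, every gene's tumor change is shifted up by the fall of those genes, so values are given without a test against 0. On this scale the change in obese mice was 0.365 ± 1.00 for Ucp1, 0.074 ± 0.496 for Cidea and 0.264 ± 0.151 for Prdm16 (log2, SD, n = 6). Dio2 was at 2.399 ± 0.607 and Elovl3, at 0 to 12 counts, at 1.22 ± 1.04. In lean mice the change on this scale was -2.65 ± 2.69 for Ucp1, -0.741 ± 0.707 for Cox7a1 and -1.23 ± 0.720 for Elovl3 (log2, SD, n = 5).

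An edgeR fit scaled to the adipocyte genes moved the median of all genes to 1.74 in obese and 0.57 in lean mice (log2), against -0.01 and 0.01 with the usual scaling. In it Dio2 was the 1 gene of the 7 called in obese mice, higher, at 2.39 (log2, edgeR adjusted p = 5.52e-05), which is above the shifted median of 1.74. There 80.1% of all genes were called and 0.616% called lower. Cox7a1 and Prdm16 changed sign in this fit, to 0.25 and 0.14, and these values and those of Ucp1, Cidea and Prdm16 above lay below that median. A change relative to adipocyte genes is a ratio within a library, and other cells beside the tumor could also carry a gene's RNA, which was not tested.

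**Figure D4:**
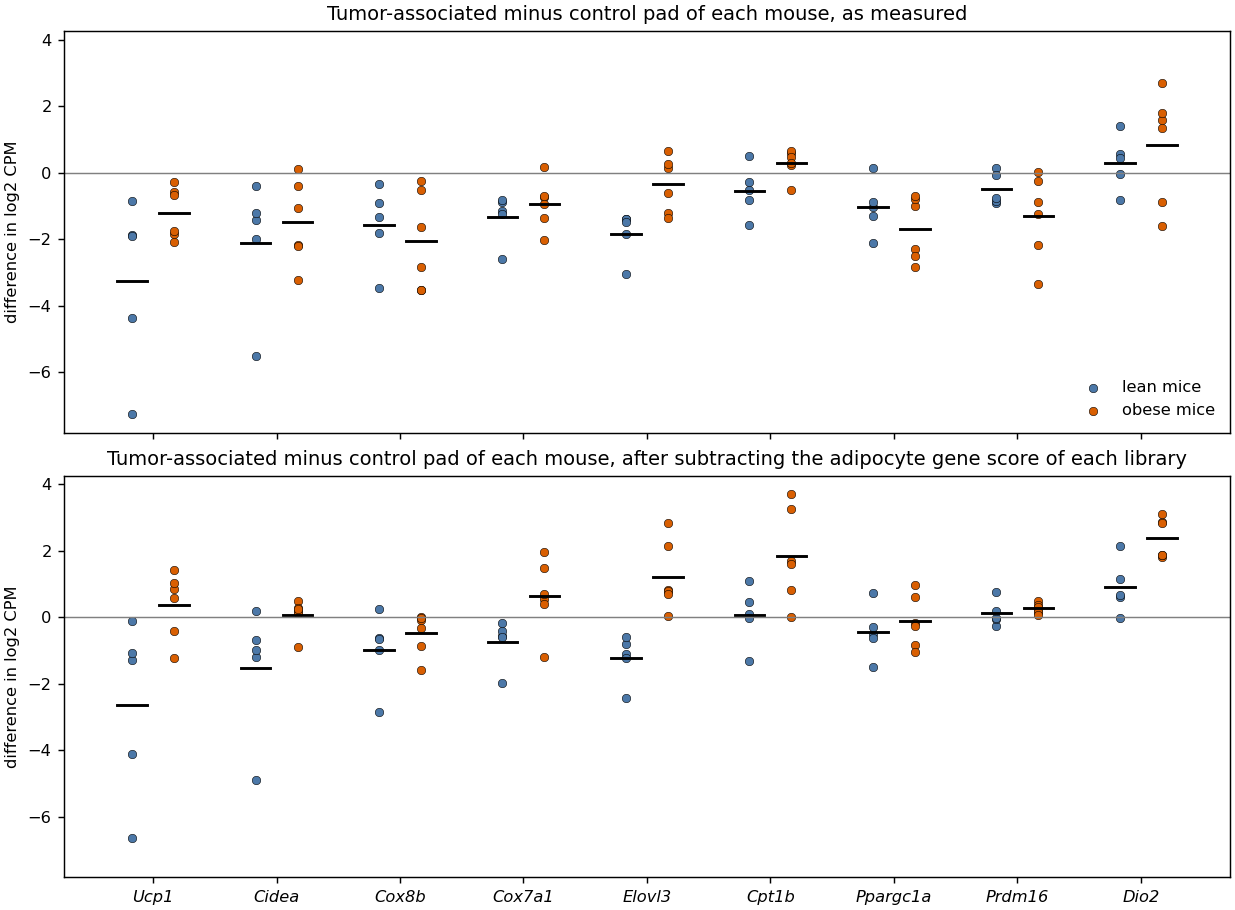
Tumor-associated minus control pad of each mouse in log2 CPM (prior count 2), for 5 lean (blue) and 6 obese (orange) mice, as measured (top) and after subtracting the mean log2 CPM of the 15 adipocyte genes of each library (bottom); black bars are means. Dio2 is above 0 in 4 of 6 obese mice at the top and in 6 of 6 at the bottom, where the subtraction moves all genes up, and Ucp1 is below 0 in 5 of 5 lean mice in both.

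Cells other than adipocytes moved with the tumor as well. Over all genes 54.5% were called in obese and 4.18% in lean mice, where 16.1% had an unadjusted p under 0.05. Macrophage genes summed to 2263 to 5844 CPM in obese tumor-associated and 1479 to 2065 CPM in obese control IWAT, with 11 of 13 called higher, and 9 of 13 were called higher in lean mice. Cell division genes were higher for 10 of 10 in obese mice, at 596 to 2282 against 144 to 325 CPM, and in lean mice edgeR called none but 10 of 10 had an unadjusted p under 0.05, at 178 to 588 against 53.4 to 267 CPM. Mammary epithelium genes were lower for 10 of 11 in obese mice, at 206 to 579 against 444 to 1149 CPM. Fibroblast genes were higher for 4 of 10 in either diet and lower for 2 of 10 in obese mice, and endothelial genes were lower for 7 of 8 in obese mice. Sympathetic nerve genes, 3 of 6 tested, summed to 5.28 to 11.5 CPM beside the tumor and 2.80 to 7.43 CPM in control IWAT of lean mice, higher beside the tumor in 5 of 5, with none called. In obese mice they summed to 0.812 to 7.60 and 4.14 to 8.00 CPM, higher beside the tumor in 2 of 6, with 1 called lower. Of 9 lymphocyte genes 1 was called lower beside the tumor in obese mice. The part of these cells in the results was not tested. The 3 tumor-associated libraries of obese mice with the least adipocyte RNA (mice 0, 2 and 4) were left out in a further fit, chosen after seeing the data. There Cox8b was at -0.85 and Prdm16 at -0.67, both no longer called, and Ppargc1a kept its call at -0.83 (edgeR adjusted p = 0.0488). Dio2 was called at 1.45 (edgeR adjusted p = 0.0214). The fit kept the control pads of these 3 mice, which broke their pairs. It left out the pads of mice 0 and 4, in which Dio2 was lower beside the tumor, so nothing is read from the Dio2 call.

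In the lists around the 9 genes, 12 of 14 signal genes were lower beside the tumor in obese mice and none higher. Over all genes in this comparison, 54.5% were called and 27.7% called lower. Nrg4, a growth factor secreted by brown fat, fell by 1.70 (log2), Prkar2b, a regulatory subunit of protein kinase A, by 1.58, and Klb, the FGF21 co-receptor, by 1.43. Among 17 regulators 5 were lower and 3 higher: Esrrg fell by 1.54, Pparg by 1.24, and Cebpb rose by 0.72. Of 22 effectors 11 were lower and 5 higher. Genes of creatine handling went different ways, since Gatm, which makes the creatine precursor, rose by 2.34 and the transporter Slc6a8 by 1.30, while the mitochondrial kinase Ckmt1 fell, from 2.80 ± 1.30 to 0.897 ± 0.623 CPM (SD, n = 6).

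In lean mice the same lists had few calls. Over all genes, 4.18% were called, 0.913% were called lower and 16.1% had an unadjusted p under 0.05. None of 14 signal genes passed in edgeR (5 at an unadjusted p under 0.05), 1 of 17 regulators did (Esrra, which fell by 0.40), and 3 of 22 effectors did, all lower. These were Acadvl, a mitochondrial acyl-CoA dehydrogenase, which fell by 0.75, Cpt2, which fell by 0.61, and Letmd1, a mitochondrial protein of brown fat, which fell by 0.46 (log2). Of 14 identity genes none passed in edgeR in lean mice, with 5 at an unadjusted p under 0.05. In obese mice 3 were lower and 3 higher, where 54.5% of all genes were called. Lhx8 led with a fall of 2.09 and Tnfrsf9 with a rise of 2.02.

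**Figure D5:**
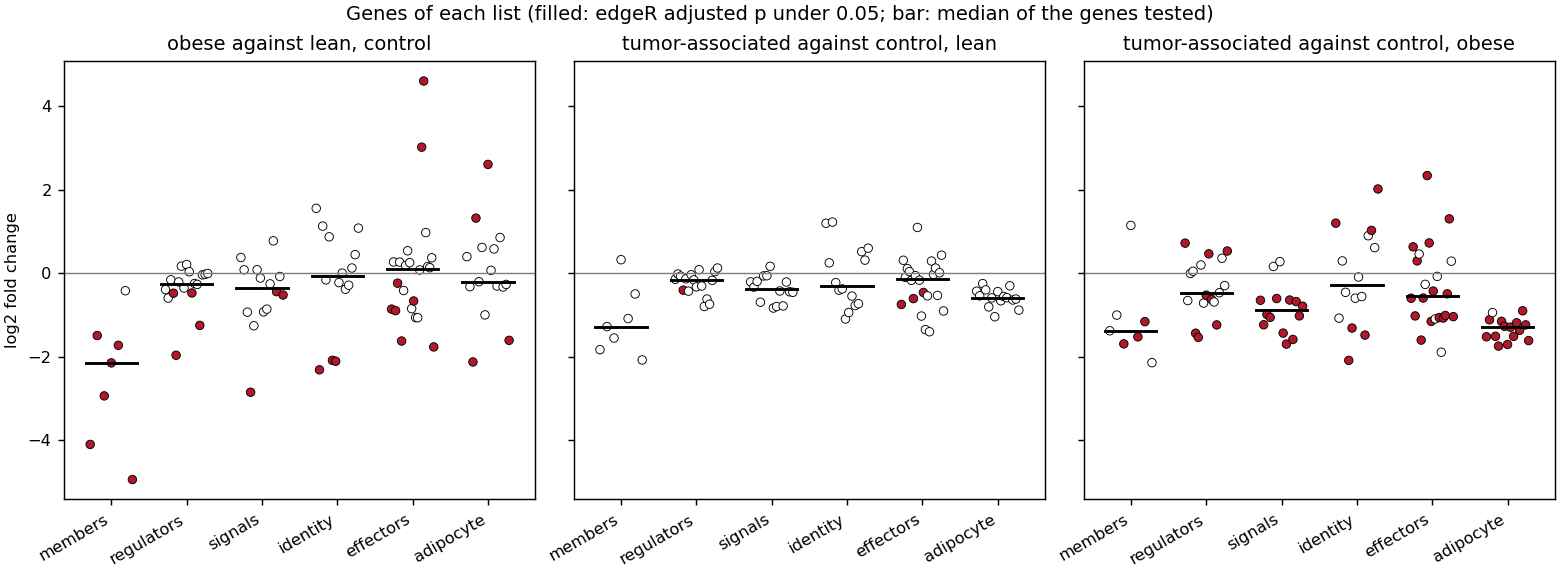
edgeR log2 fold change of each tested gene (points; filled have an adjusted p under 0.05) of the thermogenic genes (members), related regulators, signals, identity and effector genes, and adipocyte genes, with the median of each list (bar), in 3 comparisons. The median of the 7 thermogenic genes is -2.15 for obese against lean control IWAT, where that of the adipocyte genes is -0.20; it is -1.38 for the tumor in obese mice, where that of the adipocyte genes is -1.29.

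The last comparisons set obese against lean mice beside the tumor, and the tumor change of obese against that of lean mice. In both, tumor size differed along with diet. Beside the tumor 6 of the 7 genes were lower in obese mice, against 22.4% of all genes called lower and 47.0% called in all, and Cox7a1 was at -1.22 (log2, edgeR adjusted p = 0.0552), passing without lean tumor-associated mouse 0 or 2 or obese tumor-associated mouse 3. Scaled to adipocyte genes, 4 stayed called lower (Ucp1, Cidea, Cox8b and Ppargc1a), where 72.1% of all genes were called and 5.64% called lower. Ppargc1a fell by 2.16 (log2, edgeR adjusted p = 0.000264) and Cox8b by 3.08 (adjusted p = 0.000239), both without overlap, as for 13.4% of all genes. Cidea fell by 3.65, Ucp1 by 5.01, Dio2 by 1.32 and Prdm16 by 1.08. The Ucp1 value rests on 0 to 3 counts per obese library, and Ucp1 passed the filter through lean control libraries, which this comparison leaves out. A fit of only the groups compared dropped Ucp1 and Cox7a1 at the filter. It called 4 of the 5 genes kept (Cidea, Cox8b, Ppargc1a and Prdm16), where it called 5337 of 13984 genes. Dio2 lost its call without lean tumor-associated mouse 6 (-0.88, adjusted p = 0.141) or obese tumor-associated mouse 0 (-1.17, adjusted p = 0.0599), and in a fit of only the groups compared (adjusted p = 0.0605). Without the 3 libraries with the least adipocyte RNA neither Dio2 (-1.02, adjusted p = 0.108) nor Prdm16 (-0.59, adjusted p = 0.118) was called. For Ucp1 the exact permutation of diet on log2 CPM beside the tumor gave p = 0.108, with 2 of 5 lean libraries at 0 counts.

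In edgeR the tumor change differed between obese and lean mice for none of the 7 genes, where 4.92% of all genes were called. None of the 7 had an unadjusted p under 0.05, against 32.9% of all genes. Neither DESeq2 (15.9% of all genes) nor the fit with the mouse as a replicate block (4.18%) called any. Cidea differed by 0.45 (log2, SE 0.88), Ppargc1a by -0.44 (SE 0.54) and Dio2 by 0.82 (SE 0.69), so differences of about the size of the tumor changes themselves cannot be told from 0 here. Exact permutation of diet over the per-mouse changes in log2 CPM gave 9 unadjusted p-values, 3 of them under 0.05 and all for genes with few counts in at least 1 group. The mean for Ucp1 was -3.24 in lean and -1.20 in obese mice (two-sided, exact permutation p = 0.0476), Elovl3 differed by 1.48 (exact p = 0.0130) and Cpt1b by 0.82 (exact p = 0.0498). These changes depend on the prior count added before the logarithm: with 0.5 in place of 2, Ucp1 was at -4.06 in lean and -1.98 in obese mice, and with 5 at -2.69 and -0.73. For the same difference edgeR gave Ucp1 -0.07. Scaling to the adipocyte genes moved the median of all genes for this difference to 1.14, and edgeR then called none of the 7, where 0.0% of all genes were called.

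Within the groups, Ucp1 also varied from mouse to mouse, and the genes that varied with it were sought over the 22 libraries after group means were taken out. The 5 most alike by Pearson's r were Rgs2 (r = 0.772, Spearman's rho = 0.629), Rnf208 (0.728 and 0.740), Acaca (0.716 and 0.548), Flrt1 (0.709 and 0.675) and Csrnp2 (0.703 and 0.618). Rgs2 dampens signals of G protein-coupled receptors and Acaca makes malonyl-CoA for fatty acid synthesis. Of the other thermogenic genes Cidea ranked 45 among 14458 genes (r = 0.629) and Cox7a1 66 (r = 0.604), while Ppargc1a (r = 0.256) and Prdm16 (r = 0.187) were far down the order. The libraries come in pairs from 11 mice and few have many Ucp1 counts, so these values are descriptions.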

How the data were processed

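Tumor-associated and control IWAT of 5 lean and 6 obese mice gave 22 libraries, grouped by the sample labels. The authors ran prinseq on the reads before STAR 2.4.0f aligned them to mm10, and HTSeq then gave the deposited values, raw counts per gene symbol that were not normalized. Strand setting and annotation are not given in the sources used here. Beside the 23420 genes, 5 HTSeq totals name no gene, took 57.0% to 65.9% of each column's sum and were left out. Every sample column was used, and no pair of libraries in a group held the same counts within sampling noise (chi-square per df of at least 5.95).

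Counts were tested with edgeR 4.0.16 in R 4.3.3 (quasi-likelihood, TMM, default filter by group) in 1 fit of 4 groups. DESeq2, which the study used without giving a version, was an alternative, here in version 1.42.0. CPM use TMM totals, log2 CPM a prior count of 2, and RPKM the exon length of GENCODE M21 on GRCm38. At these depths a count of 0 allows 3 counts; intervals and floors cover counting error only. The fits were tested on simulated counts. Other alternatives were upper-quartile or DESeq2 size factors, no filter, at least 10 counts in every library, only the groups compared, scaling to adipocyte genes, the mouse as a replicate block, and each library left out.

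Both pads come from 1 animal, so the mouse pairs the libraries. From group means, the deviations of 1 mouse's pads had a median correlation of 0.508 for chow (5 of 5 mice over 0.1) and 0.168 for HFD (4 of 6), while pads of different mice had -0.12 and -0.07. The labels do not say whether mice shared cages or preparation days.

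The genes, the related lists (regulators, signals, identity, effectors, relatives, adipocyte, skeletal muscle, macrophage, fibroblast, mammary epithelium, proliferation, lymphocyte, endothelium and sympathetic nerve) and the tests were chosen with earlier results of these data known. Named genes are the 9, the 3 called genes with the largest change per list (regulators, signals, identity, effectors) and comparison that had at least 10 counts in every library of the higher group, the nearest relatives, the 2 most abundant genes of each cell type list, and the 5 genes most like Ucp1; not all are printed. Zic1, Tmem26, and the genes that overlap the 9 (Gm44502, Pitx3, Gm26512 and B230104I21Rik) were named after their values or positions were seen.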

Additional observations from a re-analysis of the deposited data

Results flagged for a closer look

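Within groups, 4 of 44 sets of values held a library that stood apart by Dixon's criterion, which chance meets in about 1 in 20 groups. Dio2 was highest in lean tumor-associated mouse 6, at 27.03 CPM against 8.18 to 11.4 CPM in the other 4 mice. Skeletal muscle genes summed to 8659 CPM in obese control mouse 1, to 808.7 CPM in obese tumor-associated mouse 8 and to 124.0 CPM in lean tumor-associated mouse 2, each the highest of its group. Cox7a1, which muscle also expresses, was highest of its group in obese control mouse 1, at 3.45 CPM. Without obese control mouse 1 and obese tumor-associated mouse 8 the number of thermogenic genes called was the same in all 5 comparisons, and nothing about muscle is read from this.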

How the results depend on the processing

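The number of thermogenic genes called lower in obese control IWAT stayed between 5 and 6 except with at least 10 counts in every library, a filter that kept Prdm16 alone and left 0; it left 1 for the diets beside the tumor and 1 for the tumor in obese mice. For the tumor in lean mice (0 called), DESeq2 called 1 (6.48% of all genes), the mouse as a replicate block 1 (4.63%), and leaving out 1 library 0 to 3. A fit of only the groups compared called 1, where it called 1437 of 13750 genes. Leaving out the 3 obese libraries with the least adipocyte RNA, added after seeing the data, called 4 (Cidea, Cox8b, Elovl3 and Ppargc1a). For the tumor in obese mice (3 called), DESeq2 called 5 (51.8% of all genes), the replicate block 4 (53.1%), scaling to adipocyte genes 1 (80.1%) and leaving out 1 library 3 to 4. Shares over all genes are not given for fits that left out libraries, and nothing is read from those counts. Over all genes the block called 669 in lean and 7680 in obese mice, against 605 and 7882.

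Signs turned with scaling to adipocyte genes for Prdm16 in lean (0.042) and obese mice (0.141) and for Cox7a1 in obese mice (0.249). Leaving out 1 library, Dio2 in lean mice ran from -0.116 to 0.677. The obese minus lean tumor changes, none called by edgeR, turned sign with scaling to adipocyte genes for Ucp1 (0.555), Ppargc1a (0.085), Prdm16 (0.099) and Cox8b (0.394), with the replicate block for Ucp1 (0.641), without both pads of obese mouse 1 for Cidea (-0.135), and without those 3 libraries for Ucp1 (0.053), Ppargc1a (0.265) and Cox8b (0.712). With 1 library left out they ran from -0.549 to 1.06 for Ucp1, -0.09 to 0.943 for Cidea, -0.538 to 0.113 for Cox8b and -0.109 to 0.765 for Cox7a1. With a prior count of 0.5 in place of 2 the mean per-mouse change moved by more than 1 SD for Ucp1 in obese mice (-1.20 to -1.98) and Elovl3 in lean mice (-1.83 to -2.96), and with 5 for no gene. The causes were not tested. Few counts limit Ucp1 in obese mice, Elovl3 and Cpt1b.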
